A study of Homo sapiens with 4 samples.

Results

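CIC, RRP12 and UBR4 were examined in an m6A-seq peak table of a human breast cancer line. The genes were chosen by their number of listed peaks, 24 or more each, so that number is a description and not a result. The 3 genes held 76 of the 27678 listed peaks, of 7267 gene symbols in all: 26 peaks in CIC, 26 in RRP12 and 24 in UBR4. In all, 11 genes had at least 24 listed peaks. NEDD4L, SIPA1L3 and UBR4 stood just inside that limit with 24 each, and HUWE1, MAP4 and NAV1 stood just outside it with 23 each.

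In m6A-seq an antibody against N6-methyladenosine pulls down RNA fragments (the IP), and fragments taken without the pull-down are sequenced as input. The labels gave 2 IP and 2 input libraries of poly(A) RNA, with no treatment or genotype contrast, and did not say whether the libraries came from separate cultures. The line is MDA-MB-231Br, a brain-seeking derivative, in the design and growth protocol, while the label for the cell line reads MDA-MB-231. The extraction protocol mentions embryos. Of markers of the MDA-MB-231 line, 5 of 5 had a listed peak (VIM, CD44, AXL, MSN and CAV1). Of luminal breast markers 1 of 5 had a peak, GATA3 with 8 IP and 0 input reads, and of pluripotency markers 0 of 5 had a peak. A gene with no listed peak may still be expressed.

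The table gave 1 IP and 1 input read count per peak, with no replicate number, so no test across libraries could be made. Ratios are IP reads over input reads, with exact Clopper-Pearson 95% intervals that cover counting error alone. Totals per library are not used here, so equal IP and input reads are no zero point for methylation, and ratios are compared within the table. The fewest IP reads of any listed peak were 5. A median peak of the table had 32 IP and 67 input reads, and the median ratio was 0.613.

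N6-methyladenosine is the most common internal mark of messenger RNA. It is written by a complex built around METTL3 and METTL14, mostly within the sequence DRACH, and is known for clustering in long internal exons and near stop codons. CIC (Capicua) is a transcriptional repressor with an HMG box that silences ETS family and feedback genes until receptor tyrosine kinase and MAP kinase signalling relieves it. RRP12 is a HEAT repeat protein needed for the assembly and nuclear export of ribosomal subunits. UBR4 is a giant E3 ubiquitin ligase of the N-degron pathway, which marks proteins for breakdown by their terminal residues.

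The sequences shown are the coding peaks with the highest and the lowest IP to input ratio of RRP12 and UBR4 and the one with the lowest of CIC, among peaks of at most 300 nt. In RRP12 and UBR4 they let the letters of a stretch high and a stretch low in IP reads be read side by side. They are the spliced RNA as DNA letters, 5′ to 3′, from GENCODE 29 transcripts on GRCh38, and capitals mark matches to DRACH (any base but C, then A or G, then AC, then any base but G). CIC lies on the plus strand and RRP12 and UBR4 on the minus strand, and the spans below include introns where a peak crosses exons.
CIC lowest, exons 20 to 21, chr19:42294651-42294908, plus strand, 5 IP and 50 input reads: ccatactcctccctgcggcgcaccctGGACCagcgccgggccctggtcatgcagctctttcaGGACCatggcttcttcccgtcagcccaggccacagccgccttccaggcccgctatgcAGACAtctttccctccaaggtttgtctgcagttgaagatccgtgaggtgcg
RRP12 highest, exons 27 to 28, chr10:97366530-97366909, minus strand, 405 IP and 50 input reads: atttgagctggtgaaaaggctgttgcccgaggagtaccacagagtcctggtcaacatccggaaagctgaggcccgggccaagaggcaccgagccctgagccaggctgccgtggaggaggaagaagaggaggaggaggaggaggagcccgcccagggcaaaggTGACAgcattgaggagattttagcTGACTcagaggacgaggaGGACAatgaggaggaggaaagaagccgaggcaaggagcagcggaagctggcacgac
RRP12 lowest, exons 13 to 14, chr10:97379677-97380904, minus strand, 6 IP and 57 input reads: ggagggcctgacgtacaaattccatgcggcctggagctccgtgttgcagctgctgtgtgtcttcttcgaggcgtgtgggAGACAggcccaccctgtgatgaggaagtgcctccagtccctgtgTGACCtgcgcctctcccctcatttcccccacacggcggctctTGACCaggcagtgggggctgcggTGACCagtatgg
UBR4 highest, exons 57 to 58, chr1:19140803-19141516, minus strand, 293 IP and 97 input reads: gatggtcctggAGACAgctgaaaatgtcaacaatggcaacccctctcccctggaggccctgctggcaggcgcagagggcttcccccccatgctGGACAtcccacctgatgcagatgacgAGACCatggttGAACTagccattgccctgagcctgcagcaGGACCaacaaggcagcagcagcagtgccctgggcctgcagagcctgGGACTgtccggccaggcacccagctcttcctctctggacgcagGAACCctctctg
UBR4 lowest, exon 89, chr1:19100399-19100568, minus strand, 5 IP and 146 input reads: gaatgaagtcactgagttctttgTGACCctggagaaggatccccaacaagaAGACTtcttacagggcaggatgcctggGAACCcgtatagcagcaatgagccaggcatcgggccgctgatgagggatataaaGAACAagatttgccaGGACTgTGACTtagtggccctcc

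All 3 messengers carried stretches on both sides of equal reads, in different proportions. IP reads outnumbered input reads in 26 of the 76 peaks (34.2%), where the share over all listed peaks was 40.5%. The ratio was 4 or more in 13 peaks (17.1%), against 17.2% over all listed peaks. At least 4 input reads per IP read were found in 23 (30.3%), also 30.3% over all listed peaks. Taken as a group, the 3 genes were therefore near the table as a whole, and the differences lay between the genes and along each transcript.

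In CIC, IP exceeded input in 16 of 26 peaks (61.5%, interval 40.6% to 79.8%) and stood at 4 or more per input read in 9. In RRP12, IP exceeded input in 5 of 26 (19.2%, 6.55% to 39.4%), 4 of them at 4 or more. UBR4 had IP above input in 5 of 24 (20.8%, 7.13% to 42.2%), and 0 of 24 peaks reached 4 IP reads per input read (0% to 14.2%). At the other end, at least 4 input reads per IP read stood in 3 CIC peaks, 8 RRP12 peaks and 12 UBR4 peaks. The median of log2((IP + 1)/(input + 1)) was 0.42 in CIC, -1.06 in RRP12 and -2.00 in UBR4, beside -0.63 over all listed peaks. With FDR at most 0.01 the CIC share with IP above input was 44.4% and its median -0.24, below equal reads, and UBR4 had a share of 33.3% and a median of -0.88. With 1 peak per merged region, the one with the most reads in sum, the RRP12 median was 0.23. Peaks of a gene overlap and share its RNA, so these intervals describe the lists of peaks and are too narrow as errors of a gene.

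IP reads varied far more along each messenger than input reads did. In CIC the peaks spanned 5 to 574 IP reads (114.8-fold) and 5 to 104 input reads (20.8-fold). In RRP12 the span was 6 to 405 IP reads (67.5-fold) against 26 to 82 input reads (3.15-fold). UBR4 peaks had 5 to 329 IP reads (65.8-fold) and 51 to 194 input reads (3.80-fold). The spread of the ratios in RRP12 and UBR4 therefore comes mostly from the IP reads, although the order of single peaks does not follow them throughout. In CIC the input reads also differ between parts of the transcript.

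**Figure D1:**
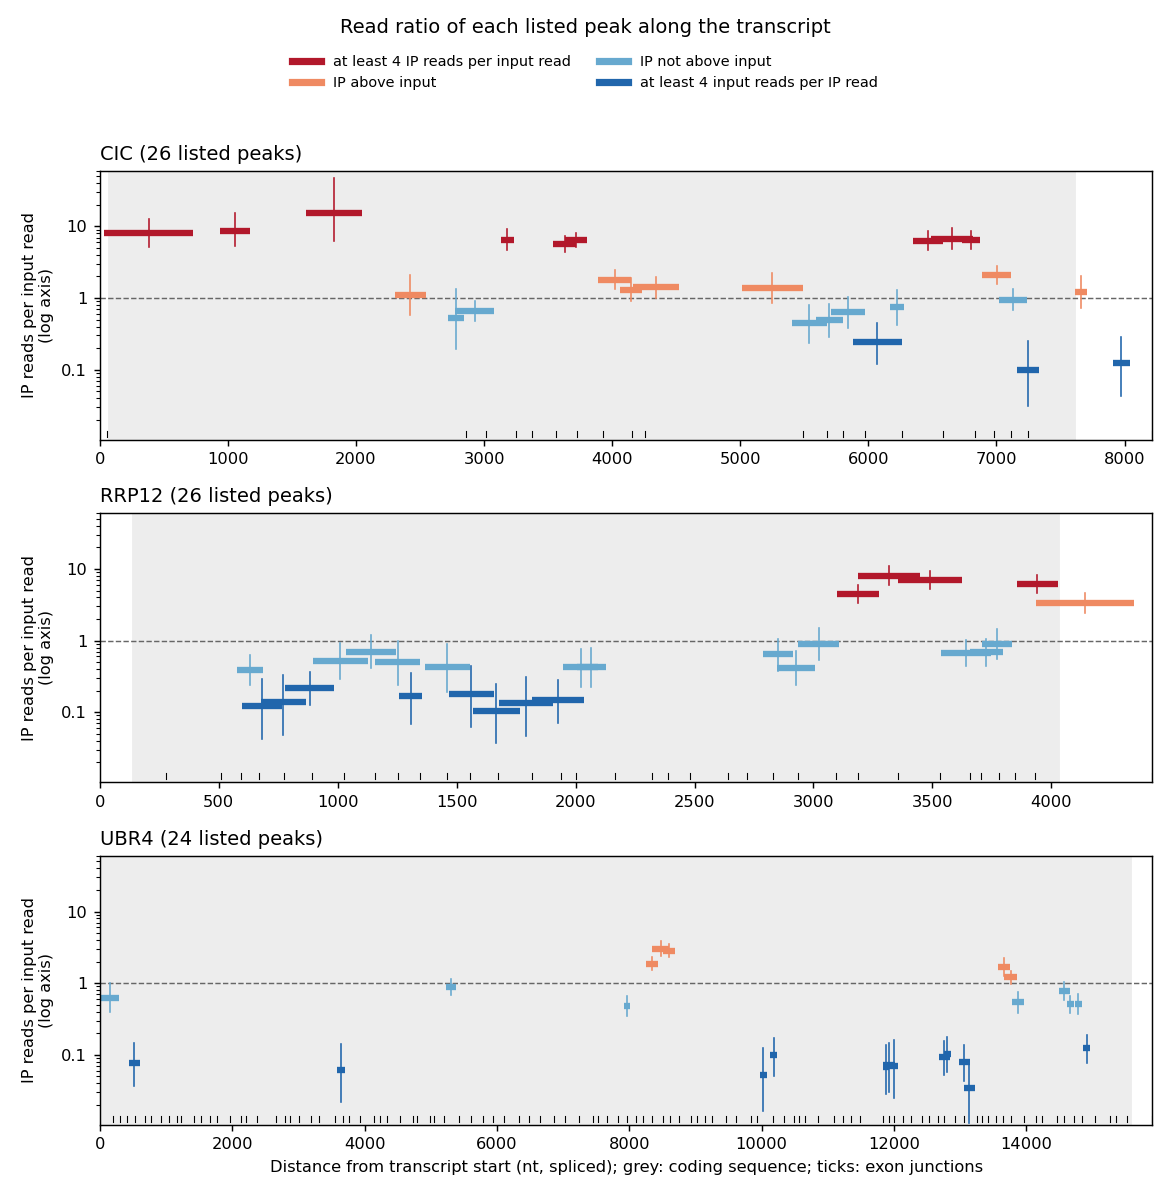
Each bar is a listed peak, drawn over its length on the spliced transcript (x axis, nt from the transcript start) at its IP to input read ratio (y axis, log scale), with the exact 95% interval for counting error as a vertical line. CIC has 3 separate blocks of peaks at 4 or more IP reads per input read, RRP12 has them at the 3′ end, and UBR4 has none.

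CIC, on chromosome 19 from 42268537 to 42295796 (ENSG00000079432.7), was read on its long transcript of 8218 nt and 21 exons, of which the peaks covered 66.1%. The transcript starts with a block rich in IP reads. Exons 1 to 2 (nt 31 to 730) had 193 IP and 24 input reads (ratio 8.04, 5.25 to 12.9), and the peak after it in exon 2 had 148 and 17 (8.71, 5.26 to 15.3). The next, also in exon 2 (nt 1611 to 2050), had 76 IP and 5 input reads, which is the highest ratio of the 76 peaks (15.2, 6.24 to 48.2). Its interval is wide because it rests on 5 input reads. Towards the 3′ end of exon 2 the excess ended, with 23 IP and 21 input reads (1.10) and then 8 and 15 (0.533).

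The second block of CIC lies in exons 4 to 8. A peak that crosses from exon 2 to exon 4 had 68 IP and 104 input reads (0.654), and 50 nt further, in exon 4, there were 273 IP and 42 input reads (6.50, 4.68 to 9.22). Exons 6 to 8 held the most IP reads of the 3 genes, 444 and 574 in overlapping peaks against 78 and 90 input reads (5.69 and 6.38). In exons 8 to 11 the next 3 peaks had ratios of 1.31 to 1.81, with 76 to 134 IP reads and 58 to 74 input reads.

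From exon 11 to exon 16 CIC peaks were low in IP reads, and the third block lies in exons 16 to 18. The last peak inside exon 11 had 44 IP and 32 input reads (1.38), and the 5 peaks after it had 13 to 28 IP reads and 32 to 54 input reads. The lowest of them, in exons 14 to 15, stood at 0.241 (0.121 to 0.447). Beyond a gap of 70 nt, 3 overlapping peaks had ratios of 6.29, 6.78 and 6.37, with 302, 278 and 376 IP reads and 48, 41 and 59 input reads. The step between neighbouring peaks was 8.39-fold.

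The 3′ end of CIC was low. After 147 IP and 71 input reads in exons 18 to 19 (2.07) and 75 and 79 in exons 19 to 20 (0.949), the peak of exons 20 to 21 had 5 IP and 50 input reads (0.1, 0.0311 to 0.249). The peak over the stop codon had 36 IP and 30 input reads (1.20, 0.719 to 2.02). In the 3′ UTR 6 IP reads stood against 49 input reads (0.122, 0.0429 to 0.286). The stop codon of CIC thus carried a listed peak, but the ratios there were far below those of the coding blocks upstream.

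CIC is made as a long and a short form, and the input reads differed between the exons of each. The annotated short transcript, CIC-207 with 5473 nt, lacks exons 1 and 2 of the long form. The 5 peaks that lie only in the long form had 5, 15, 17, 21 and 24 input reads, while the 20 peaks in exons of both forms had 30 to 90 with a median of 49.5. These input reads did not overlap between the 2 sets of peaks. The IP reads did overlap, with 8 to 193 (median 76) in the long form's own exons and 5 to 574 (median 75.5) in the shared ones. The ratios of 8.04, 8.71 and 15.2 come with input reads of 24, 17 and 5, among the 5 lowest of the gene. The part of the lower input in these ratios was not tested.

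**Figure D2:**
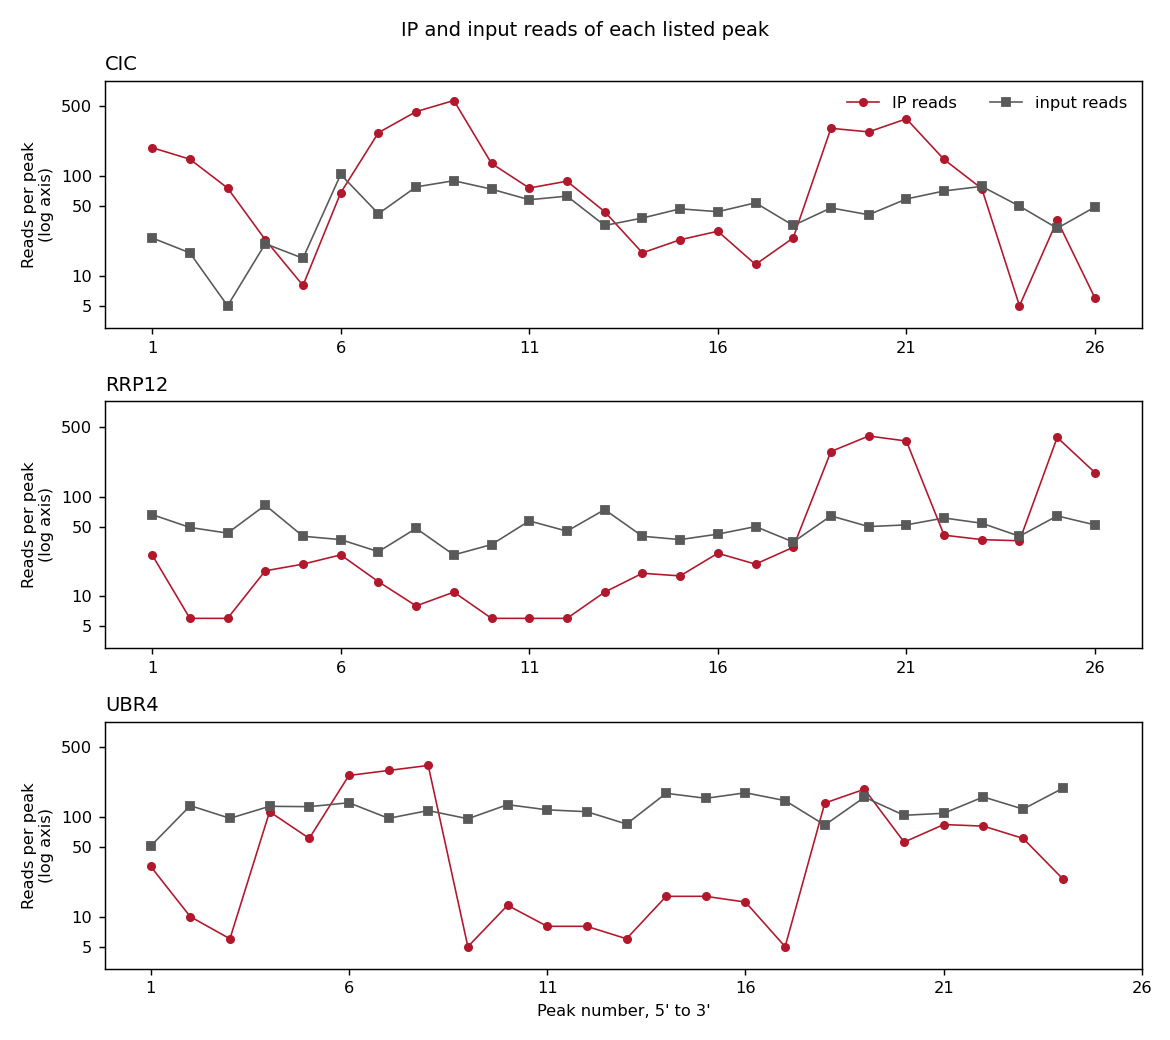
IP reads (circles) and input reads (squares) of each listed peak, numbered 5′ to 3′ (x axis), on a log scale (y axis). Input reads stay within 26 to 82 in RRP12 and 51 to 194 in UBR4 while IP reads span 6 to 405 and 5 to 329, and in CIC the input reads of peaks 1 to 5 lie below all others of the gene.

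RRP12, on chromosome 10 from 97356702 to 97401370 (ENSG00000052749.13), has a transcript of 4425 nt in 34 exons, with 69.6% under a peak. Its peaks split by position into a long low part and a short high part. The first 18 peaks, from exon 3 to exon 26 (nt 577 to 3106), had 6 to 31 IP reads and 26 to 82 input reads, with IP below input in all 18. Their median was 15 IP reads. Exons 13 to 14, with 6 IP and 57 input reads, had the lowest ratio (0.105, 0.0371 to 0.244). In exons 4 to 5 there were 6 IP and 49 input reads (0.122, 0.0429 to 0.286). The higher values of this part were 26 IP and 37 input reads in exons 8 to 9 (0.703, 0.409 to 1.19) and 31 and 35 in exons 25 to 26 (0.886). Between exons 23 and 32 the lowest peak, in exons 24 to 25, had 21 IP and 50 input reads (0.420, 0.240 to 0.712).

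The high part of RRP12 starts in exon 26. In exons 26 to 27 there were 283 IP and 64 input reads (4.42, 3.36 to 5.89). In exons 27 to 28 there were 405 and 50 (8.10, 6.03 to 11.1), and in exons 28 to 29 there were 361 and 52 (6.94, 5.18 to 9.47). The next 3 peaks, in exons 29 to 32, had 36 to 41 IP reads and 40 to 61 input reads, with ratios of 0.672 to 0.900. The peak of exons 28 to 29 and the one after it share 90 nt, yet differed 10.3-fold in their ratio.

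At the stop codon RRP12 was high again. The peak of exons 33 to 34, which ends inside the coding sequence, had 392 IP and 64 input reads (6.13, 4.69 to 8.11). The last peak crosses the stop codon into the 3′ UTR and had 174 IP and 52 input reads (3.35, 2.44 to 4.65). Input reads overlapped between the sides: they were 50 to 64 in the 5 peaks with IP above input and 26 to 82 in the other 21. IP reads of these 2 sets did not overlap, with 174 to 405 and 6 to 41. The sets were split by IP against input reads, so a difference in IP reads is in part built in.

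UBR4, on chromosome 1 from 19074506 to 19210276 (ENSG00000127481.14), has a transcript of 15906 nt in 106 exons. Its 24 peaks touched 31 exons and covered 18.9% of the length, so most of this messenger has no listed peak. The first 5 peaks were spread over exons 1 to 54. The peak over the start codon had 32 IP and 51 input reads (0.627), and exons 4 to 5 had 10 and 130 (0.0769). Exons 26 to 27 had 6 IP and 97 input reads (0.0619, 0.0222 to 0.140), while exon 38 had 113 and 128 (0.883, 0.679 to 1.15). Exons 53 to 54 had 61 IP and 127 input reads (0.480).

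IP exceeded input in UBR4 at exons 56 to 59 and at exons 93 to 95, and in no other listed peak of the gene. The 3 overlapping peaks of exons 56 to 59 had 261, 293 and 329 IP reads and 139, 97 and 116 input reads. Their ratios were 1.88, 3.02 (2.39 to 3.84) and 2.84. Exons 93 to 94 had 138 IP and 83 input reads (1.66, 1.26 to 2.21). Exons 94 to 95 had 190 and 158 (1.20, 0.969 to 1.49), with an interval that includes 1.

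Between these stretches lay the lowest ratio of the 3 genes. Upstream peaks were also low, with 0.0619 in exons 26 to 27 and 0.0769 in exons 4 to 5. The 9 peaks from exon 68 to exon 89 had 5 to 16 IP reads against 85 to 175 input reads. Exon 89 had 5 IP and 146 input reads (0.0342, 0.0110 to 0.0818), and the first peak of exon 68 had 5 and 96 (0.0521, 0.0165 to 0.126). The step from exons 58 to 59 to exon 68 was 54.5-fold over a gap of 1280 nt, and the step from exon 89 to exons 93 to 94 was 48.5-fold over 340 nt. The input reads at both ends of these steps stayed within 83 to 146.

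After exon 95 the UBR4 ratios were intermediate and then low. Peaks in exons 95 to 101 had 56 to 84 IP reads and 104 to 159 input reads, with ratios of 0.508 to 0.771. Exon 102 had 24 IP and 194 input reads (0.124, 0.0774 to 0.190). This last listed peak ends 614 nt before the end of the coding sequence, so UBR4 had no listed peak within 200 nt of its stop codon, where CIC had 1 and RRP12 had 3.

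The list of peaks was divided at exon junctions. Overlapping neighbours had a junction between their ends in 44 of 44 cases, 13 in CIC, 22 in RRP12 and 9 in UBR4. Over the whole table the figure was 10346 of 10351 overlapping pairs. In 37 of the 44 the overlap was 90 nt, the length of a 100-nt window less a 10-nt step. A broad region over many short exons thus appeared as many listed peaks. Merging peaks that share a base left 13 regions in CIC, 4 in RRP12 and 15 in UBR4. By merged regions 10 genes of the table stood above CIC and 5 above UBR4, but 675 stood above RRP12, where 4 genes had more listed peaks.

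**Figure D3:**
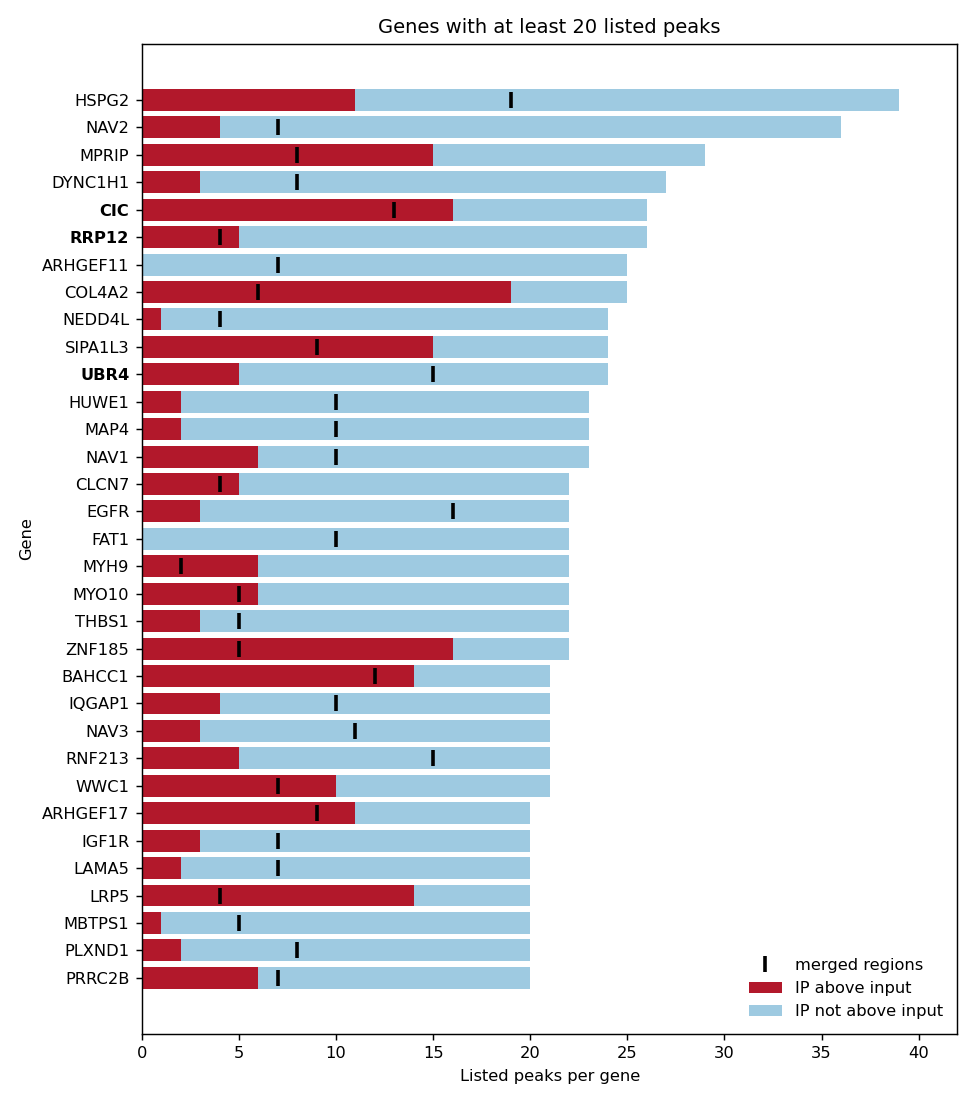
Listed peaks (x axis) of the 33 genes with at least 20, split into peaks with IP above input and the others, with a black tick at the number of merged regions. The 3 genes described here are in bold, and RRP12 has 26 peaks but 4 merged regions.

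Among the 33 genes with at least 20 listed peaks, these 3 included, CIC was on the high side and RRP12 and UBR4 in the middle. Over these 33 genes the share of peaks with IP above input ran from 0% to 76%, with a median of 20.8%, which is the share of UBR4 itself. The closest genes in this share were sought outside the 3, so RRP12 and UBR4 were not compared with each other. The closest to CIC were SIPA1L3 (15 of 24) and BAHCC1 (14 of 21). The closest to RRP12 and to UBR4 were the same pair, IQGAP1 (4 of 21) and CLCN7 (5 of 22). Their median log2 ratios were -3.44 in IQGAP1 and -1.16 in CLCN7, so that CLCN7 is the nearer to both genes in level. The measure of likeness is this share over 1 pooled table, and nothing was tested.

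The motif core GGAC was denser in the peaks of each gene with IP above input than in its other peaks. It was counted on the transcribed strand, and a GGAC followed by A, C or T is also a DRACH match. In CIC it occurred 0.780 times per 100 nt where IP exceeded input (0.540 to 1.09) and 0.502 times in the other peaks (0.251 to 0.899). In RRP12 the densities were 0.853 (0.426 to 1.53) and 0.356 (0.190 to 0.609). In UBR4 they were 1.27 (0.679 to 2.18) and 0.401 (0.200 to 0.718). The intervals of the 2 sets overlap in each of the 3 genes, and the difference was not tested. With 1 peak per merged region the order held in all 3 genes. The CIC densities then lay close together, at 0.744 and 0.682, while those of RRP12 and UBR4 stayed further apart. Peak by peak the relation was weak in CIC, where Spearman's rho between GGAC density and the log2 ratio was 0.11. It was 0.40 in RRP12 and 0.42 in UBR4. Bases under no listed peak had 0.646 GGAC per 100 nt in CIC, 0.372 in RRP12 and 0.372 in UBR4.

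Over all placed peaks the GGAC densities were 0.638 with IP above input and 0.470 without, but for DRACH the order was the other way, with 1.70 and 1.96. In the 3 genes DRACH densities were 1.56 with IP above input and 0.959 without in CIC, 1.55 and 1.42 in RRP12, and 2.65 and 1.82 in UBR4. With each base counted 1 time, the RRP12 order turned, with 1.471 and 1.505 DRACH matches per 100 nt. A GGAC stood in 14 of 16 CIC peaks with IP above input and in 6 of the other 10. The same counts were 4 of 5 and 9 of 21 in RRP12, and 5 of 5 and 9 of 19 in UBR4. Of all placed peaks 63.4% had a GGAC and 95.3% a DRACH match. Base composition moved with the ratio in UBR4, where median GC was 56.3% in peaks with IP above input and 51.8% in the others, and over all placed peaks, where the medians were 60.8% and 51.8%. Its part in the motif counts was not tested. In CIC the medians were 65.6% and 65.2%, and in RRP12 58.5% and 58.7%. Peak by peak, Spearman's rho between GC and the log2 ratio was 0.28 in CIC, 0.04 in RRP12 and 0.38 in UBR4. The rho for GGAC density was 0.11 in CIC, 0.40 in RRP12 and 0.42 in UBR4.

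**Figure D4:**
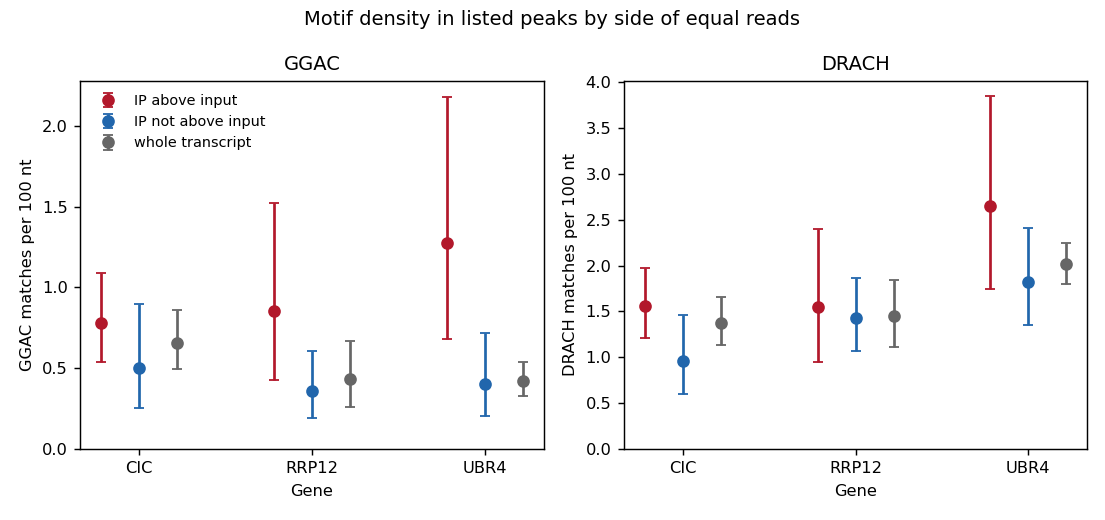
GGAC (left) and DRACH (right) matches per 100 nt (y axes) in peaks with IP above input, in the other peaks and in the whole transcript of each gene, with exact Poisson 95% intervals. Bases shared by overlapping peaks are counted again, so the intervals of the peak sets are too narrow. GGAC densities are 0.780, 0.853 and 1.27 where IP exceeded input, and 0.502, 0.356 and 0.401 in the other peaks.

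The window score in the authors' deposited table ran differently from the read ratio in each gene. Across peaks, which are not replicates and in part share reads, Spearman's rho between the authors' score and the ratio was 0.27 in CIC (n = 26), 0.09 in RRP12 (n = 26) and -0.66 in UBR4 (n = 24). Over the whole table it was 0.11. The 5 UBR4 peaks with IP above input had scores of 1.08 to 1.59 (median 1.38) in the authors' deposited table, and the other 19 had 1.09 to 4.42 (median 3.12). How the score was computed is not given in the sources used here.

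**Figure D5:**
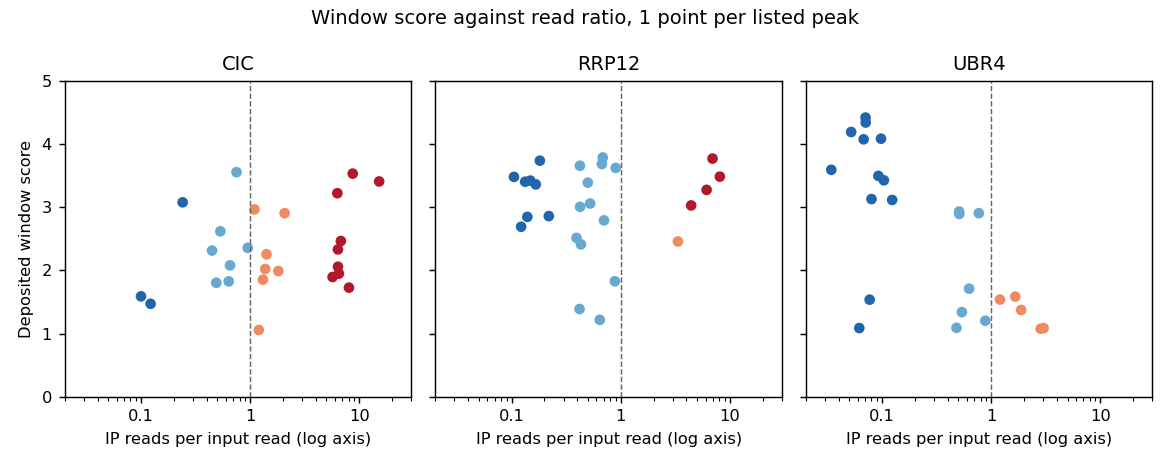
The authors' deposited window score (y axis) against the IP to input read ratio (x axis, log scale) of each listed peak, coloured from dark blue (at least 4 input reads per IP read) to dark red (at least 4 IP reads per input read). In UBR4 the peaks with IP above input have scores of 1.08 to 1.59, and scores up to 4.42 belong to peaks with IP below input.

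Genes that work with the 3 were taken from a list for each, and the number of members with a listed peak is given with no comparison. Over all genes with a listed peak, 73.8% had a peak with IP above input and 43.5% a peak at 4 or more IP reads per input read, peaks with 0 input reads included. Of 14 partners and targets of CIC, 11 had a listed peak, 8 a peak with IP above input and 5 a peak at 4 or more. CCND1, the cyclin D1 gene, reached 8867 IP and 140 input reads (63.3, 53.6 to 75.4). ATXN1, which encodes the CIC partner ataxin-1, had 21 IP and 2 input reads (10.5, 2.57 to 92.4), and SPRED2, an inhibitor of RAS signalling, 458 and 59 (7.76, 5.91 to 10.4). ATXN1L, the related partner gene, had 16 IP and 0 input reads, at least 5.33-fold against a floor of 3 reads. DUSP6, SPRY2 and SPRY4, feedback inhibitors of the MAP kinase pathway, had no listed peak.

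Of 15 assembly factors of the small ribosomal subunit, 12 had a listed peak, 9 a peak with IP above input and 6 a peak at 4 or more. The highest were PNO1 with 984 IP and 90 input reads (10.9, 8.80 to 13.7) and BYSL with 2517 and 255 (9.87, 8.67 to 11.3), both assembly factors of the pre-40S particle. TSR1, another such factor, had 26 IP and 0 input reads, at least 8.67-fold against the same floor. RIOK1, a kinase gene, counts among the 6 with 5 IP and 0 input reads, which is at least 1.67-fold. NOP14, DHX37 and the export receptor gene XPO1 had no listed peak.

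Of 12 UBR box ligases and partners of UBR4, 9 had a listed peak, 7 a peak with IP above input and 4 a peak at 4 or more. UBR2, a ligase of the N-degron pathway, had 88 IP and 15 input reads (5.87, 3.37 to 10.9), and KCMF1, a ligase that binds UBR4, had 21 and 4 (5.25, 1.77 to 21.0). FBXO11 and UBR3 count among the 4 with 9 and 6 IP reads and 0 input reads, which is at least 3-fold and at least 2-fold. UBE2A, CALM2 and CALM3 had no listed peak. In all 3 lists, most members with a listed peak had a peak with IP above input, as did 73.8% of genes in the table.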

How the data were processed

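Sonicated poly(A) RNA was immunoprecipitated, per the labels' protocols, with an m6A antibody and made into stranded libraries. The submitters' processing notes name HISAT2, HOMER and GRCh38/hg38 with no role, and peak calling and pooling are not given in the sources used here. The deposited table holds whole read counts, 1 for IP and 1 for input per peak, treated as pooled. Its p-value and FDR, up to 0.1, are the authors' and served as a filter in an alternative, not as a test. The window score is the authors', per the file headers.

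Of 27855 entries, 177 repeated another and were dropped. A peak was placed on a GENCODE 29 transcript where its ends fell in exons and its length without introns was a multiple of 10 nt. This placed 97.3% of peaks and all 76 described here. Read counts were not divided by length, since input reads were almost unrelated to it (Spearman's rho -0.04). The scripts used Python 3.11.15, pandas 2.3.3 and scipy 1.17.1 and were tested on simulated data. The genes and lists were chosen with earlier results of these data known. Per gene, the text prints the regions with the highest and lowest ratios among peaks of at least 20 reads, the nearest genes by share with IP above input, and per list the genes with the highest ratios and those with no peak. Some items that these rules would name are not reported here.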

Additional observations from a re-analysis of the deposited data

How the results depend on the processing

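Of 90 alternative values, 69 planned and 9 added ones kept their direction and stayed within the interval or span allowed for the value reported, which is wide for shares of so few peaks. With 1 peak per merged region, the peak with the most IP and input reads together stood for its region. That choice favours peaks high in IP reads, so the shift to higher ratios in CIC and RRP12 is in part built in. The RRP12 region of exons 23 to 32 had IP above input in 3 of 9 peaks, but counted with a ratio of 8.10. IP then exceeded input in 84.6% of CIC regions and 50% of RRP12 regions, and 50% of RRP12 regions reached 4 IP reads per input read. The RRP12 median log2 ratio turned to 0.23, against -1.06 over all peaks. The share with 4 or more input reads for every IP read was then 50% in RRP12 and 7.69% in CIC, the UBR4 share with IP above input 13.3%, and the medians of CIC and UBR4 1.04 and -2.96. With FDR at most 0.01, the CIC median turned to -0.24, against 0.42, IP exceeded input in 44.4% of CIC peaks and 33.3% of UBR4 peaks, 22.2% of CIC peaks reached 4 IP reads per input read, the UBR4 median was -0.88, and UBR4 kept 15 listed peaks of 24. With a pseudocount of 5 the highest CIC ratio was 8.1, against 15.2. With DRACH in place of GGAC, matches per 100 nt in peaks with IP above input and in the others were 1.56 and 0.959 in CIC, 1.55 and 1.42 in RRP12, and 2.65 and 1.82 in UBR4. The fewer peaks under these filters are part of their construction; the cause was not tested further. No paired analysis was possible because the table holds 1 IP and 1 input count per peak with no replicate number. For the same reason leaving out each replicate was not run. Merging on the spliced transcript and counting each base 1 time for GGAC were chosen after seeing the data. Depth limits the ratios with few reads: 5 input reads lie behind the highest CIC ratio and 5 IP reads behind the lowest of CIC and UBR4.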

Other observations

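No annotated transcript of another gene shared a 50-nt stretch with any of the 76 peaks (0 of 76), although 24 genes named CICP and a number, which are CIC pseudogenes, are annotated. Exons of AL355490.2, on the opposite strand, overlap RRP12 and exons of AL137127.1 overlap UBR4, but neither lies under a listed peak of the 3 genes.

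Across the 7139 genes with a placed peak, the number of listed peaks had a Spearman's rho of 0.23 with the number of exons and of 0.08 with transcript length, as a description across genes. The 27678 listed peaks merged to 16354 regions, and the highest number in a gene was 19. The deposited FDR lay below the deposited p-value in 1 peak of CIC, 2 of RRP12 and 2 of UBR4, and in 19.8% of all peaks of the authors' deposited table.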
